A study of Mus musculus with 6 samples.

Results

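The breakdown of the branched-chain amino acids was followed through 10 genes, *Bcat2*, *Bckdha*, *Bckdhb*, *Dbt*, *Bckdk*, *Ppm1k*, *Ivd*, *Mccc1*, *Hibadh* and *Aldh6a1*, taken by symbol from a gene table of 36144 symbols. All 10 were among the 16069 genes that passed the filter on low counts. RNA came from the whole inguinal white adipose tissue (iWAT) of 10-week-old female mice on the C57BL6/J background, fed chow ad libitum, with 3 Cebpa_fl/fl and 3 Cebpa_ASKO mice and 1 library per mouse. Both groups carried the floxed *Cebpa* allele and were littermates. The Cebpa_fl/fl controls were negative for the AdipoQ-Cre transgene and the Cebpa_ASKO mice were positive for it. This Cre is driven by adiponectin regulatory sequence, so the cells of the depot that do not express adiponectin keep *Cebpa*.

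Leucine, isoleucine and valine are first transaminated, in most tissues outside the liver by the mitochondrial enzyme BCAT2, to branched-chain 2-oxoacids. The branched-chain 2-oxoacid dehydrogenase complex (BCKDH) then commits them to oxidation, and it is switched off when the kinase BCKDK phosphorylates its E1 alpha subunit and on when the phosphatase PPM1K removes the phosphate. After that step the carbon skeletons take separate routes in the mitochondrial matrix. Adipocytes raise this pathway as they differentiate and use its products for lipid synthesis.

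The RNA libraries held between 33141769 and 49477671 estimated counts. *Cebpa* itself was between 448 and 498 CPM (counts scaled to a common library size, with edgeR's TMM factors) in Cebpa_fl/fl and between 37.2 and 45.8 in Cebpa_ASKO. Over the whole table, 5.23% of genes differed at an adjusted p below 0.05 in edgeR's quasi-likelihood test, 3.84% lower and 1.39% higher in Cebpa_ASKO, and a gene past that threshold is said here to have fallen or risen. All 14 adipocyte markers were above 0 in every library and 8 of them fell, with a summed level of 45350 to 56211 CPM in Cebpa_fl/fl and 13840 to 15914 in Cebpa_ASKO. In whole tissue, fewer adipocytes and less RNA per adipocyte cannot be told apart. Of 18 skeletal muscle markers 13 rose, with sums of 729 to 1011 CPM against 2326 to 6678. Of 9 tested mammary epithelium markers 0 passed the test in edgeR, with 7 higher at an unadjusted p under 0.05, 4 called in DESeq2 and 1 in limma. Their sums were 798 to 1746 against 2289 to 2421 CPM, and *Wap* was at 0 in every library but Cebpa_ASKO 1. Endothelial markers summed to 419 to 486 against 311 to 403 CPM, with 1 of 8 called lower in edgeR, 3 in DESeq2 and 5 apart. Hepatocyte markers summed to 1551 to 2965 against 276 to 759 CPM, nearly all of it *Cyp2e1*, with 1 of 4 tested called lower in edgeR and 3 of 8 in DESeq2, and *Ttr*, *Apob* and *Hnf4a* at 0 in every library but Cebpa_ASKO 1. Cebpa_fl/fl 1 stood apart in lymphocyte markers, at 273 CPM in sum against 6.85 to 14.7 in the other libraries. Cebpa_fl/fl 2 stood apart in citric acid cycle genes, at 3158 CPM against 5041 to 7535. It was also lowest in brown and beige adipocyte markers, at 155 CPM against 405 to 1480. The same library was highest in macrophage markers (3012 against 1123 to 2513 CPM) and in fibroblast and progenitor markers (14526 against 8284 to 12041 CPM). The part of these differences in the results below was not tested. Values without a library, or with the muscle sum as a covariate, are given in places. The muscle sum does not overlap between the genotypes, so a fit with it cannot separate muscle from genotype. In that fit *Cebpa* itself lost its call (edgeR adjusted p = 0.0861).

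The breakdown genes fell at the entry to the pathway and at several later steps, while the gene for the catalytic E1 alpha subunit did not pass the test. Of the 10 genes, 5 fell in Cebpa_ASKO and 0 rose in edgeR, against 3.84% and 1.39% of all genes tested, and the 8 with an unadjusted p under 0.05 were all lower. The 5 were *Bcat2*, *Dbt*, *Ivd*, *Mccc1* and *Aldh6a1*. The 3 Cebpa_ASKO libraries lay below all 3 Cebpa_fl/fl libraries for 8 of the 10, where 13.2% of all genes did so and 26.1% were apart in either direction, and the groups overlapped only for *Bckdha* and *Bckdk*. The median log2 fold change of the 10 was -0.70, beside 0.02 over all genes tested. The plot of the 10 genes by library shows these separations.

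**Figure D1:**
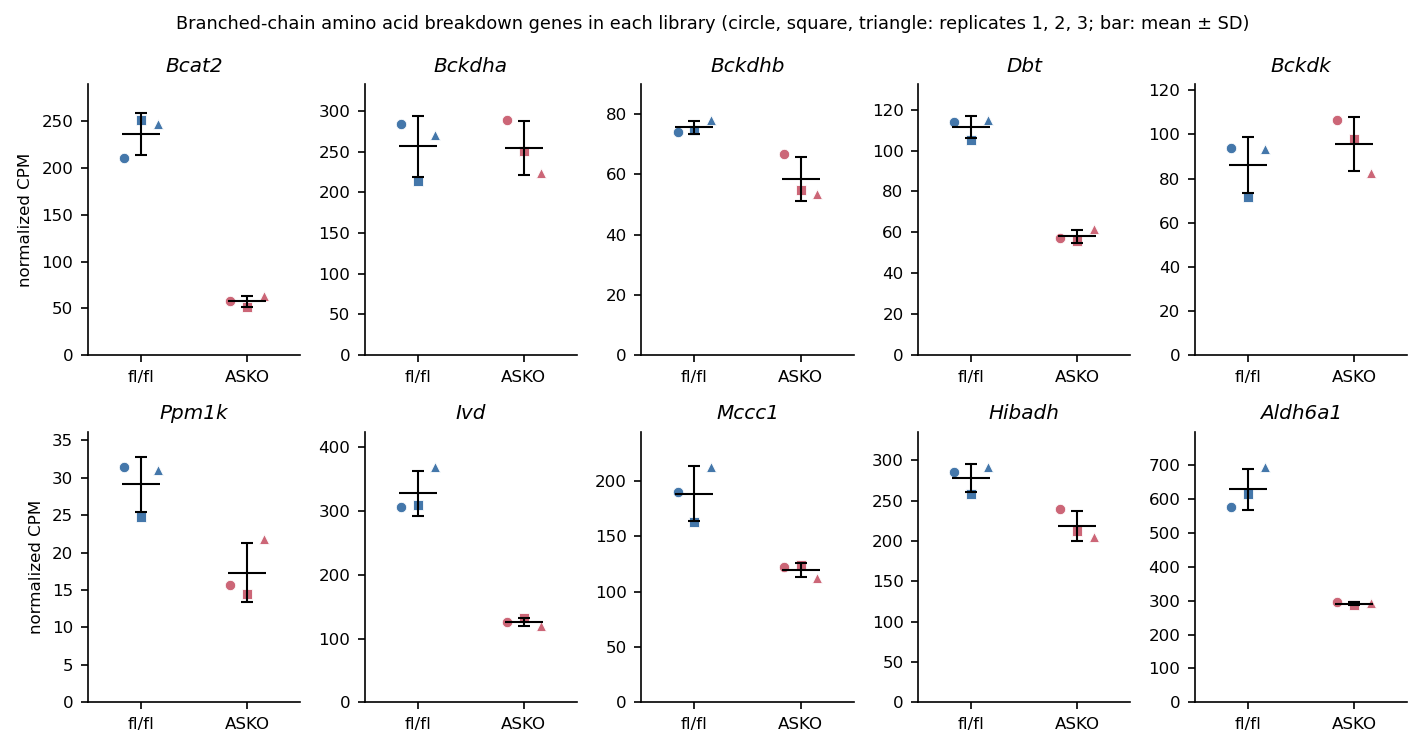
Each panel plots 1 gene in normalized CPM from 0, with the 3 Cebpa_fl/fl libraries on the left and the 3 Cebpa_ASKO libraries on the right, and bars for the mean ± SD. The groups are separate in 8 panels, with the widest gap relative to the level for *Bcat2*, while *Bckdha* and *Bckdk* overlap.

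Promoters of 3 genes that fell and of *Bckdha*, which did not pass the test, are shown so that their letters can be compared. RefSeq (GRCm38.p6) gave windows from 250 bases before to 50 bases after the start site for 9 of the 10 genes, 12 windows in all, and *Dbt* was not matched. Of these windows those of *Bcat2*, which fell most, and *Bckdha* are shown first, and both hold none of the motifs searched. The *Bckdha* window is placed on a RefSeq start site at 25658761. Its main transcript, Bckdha-201, starts upstream at 25658981 in GENCODE M21, so most of the window lies within the span of that transcript. *Ivd* and *Aldh6a1* follow, with matches in capitals: CCAAT, which reads ATTGG on the other strand, and in *Ivd* the letters CCCCACCC. All are given on the strand of the gene, 5′ to 3′.
Bcat2 (chr7:45569903-45570202, plus strand): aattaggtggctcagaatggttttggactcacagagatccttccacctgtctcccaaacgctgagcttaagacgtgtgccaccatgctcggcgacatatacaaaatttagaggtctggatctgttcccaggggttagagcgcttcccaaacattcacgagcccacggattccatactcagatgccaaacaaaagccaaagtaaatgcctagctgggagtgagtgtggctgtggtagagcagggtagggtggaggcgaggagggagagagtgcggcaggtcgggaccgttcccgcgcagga
Bckdha (chr7:25658712-25659011, minus strand): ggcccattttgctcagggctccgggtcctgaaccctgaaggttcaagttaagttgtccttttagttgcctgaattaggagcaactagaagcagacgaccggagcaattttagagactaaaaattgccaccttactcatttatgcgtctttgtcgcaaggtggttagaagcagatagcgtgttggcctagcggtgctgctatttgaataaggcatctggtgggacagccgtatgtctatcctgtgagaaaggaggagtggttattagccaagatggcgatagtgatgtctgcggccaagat
Ivd (chr2:118861744-118862043, plus strand): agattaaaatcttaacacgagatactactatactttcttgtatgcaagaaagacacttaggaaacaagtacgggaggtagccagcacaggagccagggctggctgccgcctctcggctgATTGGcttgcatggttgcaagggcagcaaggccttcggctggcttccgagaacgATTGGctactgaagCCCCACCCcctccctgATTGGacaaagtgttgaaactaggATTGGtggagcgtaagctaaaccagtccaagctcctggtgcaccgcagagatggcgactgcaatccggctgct
Aldh6a1 (chr12:84450975-84451274, minus strand): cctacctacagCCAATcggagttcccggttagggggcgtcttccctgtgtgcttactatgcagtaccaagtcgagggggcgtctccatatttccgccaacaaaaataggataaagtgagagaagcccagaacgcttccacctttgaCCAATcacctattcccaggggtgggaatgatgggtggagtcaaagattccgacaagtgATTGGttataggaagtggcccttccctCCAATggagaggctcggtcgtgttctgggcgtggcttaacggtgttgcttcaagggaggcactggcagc

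The CCAAT box was present in 9 of the 12 windows and 7 of the 9 genes, with 4 matches each in the windows of *Ivd* and *Aldh6a1* shown and 3 in that of *Mccc1*. It was present in 37.41% of the 32851 promoters of the same length. The other genes with a match were *Bckdhb*, *Bckdk*, *Ppm1k* and *Hibadh*, with 1 or 2 in each window. None of these passed the test in edgeR, and *Bcat2*, which fell most, had no match. The 4 matches of *Ivd* began 131, 77, 47 and 23 bases before the start site, and those of *Aldh6a1* 239, 104, 46 and 19 bases before it. CCCCACCC, a CACCC box of the kind that Krüppel-like factors bind, was in *Ivd* and *Mccc1* alone of the members and in 9.988% of all promoters. The letters TTGCNNAA, which C/EBP proteins bind, were in none of the 12 windows and in 10.8% of all promoters. TCAAGGTCA, the element of estrogen-related receptors, was in none either, and in 0.4231% of all promoters. Both strands were searched, no matches of different motifs overlapped in these windows, and a match is a description of the letters and not a site in use.

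*Bcat2* (chr7:45570153-45589711 in GRCm38, plus strand), the transaminase that opens the pathway, had the largest change of the 10. It was at 211, 252 and 247 CPM in Cebpa_fl/fl 1 to 3 and at 58.1, 51.4 and 63.5 in Cebpa_ASKO 1 to 3. The highest Cebpa_ASKO library was far below the lowest Cebpa_fl/fl library. Its mean fell from 236 ± 22.3 to 57.7 ± 6.06 CPM (SD, n = 3 each), or to 24.4% of the control level, with a log2 fold change of -2.03 (SE 0.12, edgeR adjusted p = 0.000724).

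Most of the *Bcat2* signal came from a pair of coding transcripts with different start sites. Bcat2-201, which starts at the promoter shown, was at 100.2, 128 and 141 TPM (a level per transcript length) in Cebpa_fl/fl and 21.3, 29.1 and 36.7 in Cebpa_ASKO. Bcat2-202, which starts further downstream, was at 48.1, 70.9 and 41.9 against 20.6, 10.2 and 13.9 TPM. The libraries of the genotypes did not overlap for either transcript, and their means were at 23.6% and 27.8% of the control means. With 3 libraries against 3 the exact two-sided permutation test cannot go below p = 0.1, which both reached. kallisto divides reads among similar transcripts, so the split is less certain than the sum. *Bcat1*, the cytosolic transaminase, was low, at 6.77, 6.85 and 4.96 CPM against 4.79, 6.38 and 8.10 (log2 fold change 0.06, 95% interval -0.52 to 0.63, edgeR adjusted p = 0.937). The ratio of *Bcat2* to *Bcat1* in gene TPM was 52.8, 69.0 and 88.0 in Cebpa_fl/fl and 21.4, 12.9 and 13.3 in Cebpa_ASKO, without overlap (exact permutation p = 0.1). It restates the fall of *Bcat2* and is not separate support.

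Of the 4 genes for subunits of the BCKDH complex, only *Dbt* passed the test. *Dbt* (chr3:116513070-116549981, plus strand) encodes the E2 core, the transacylase on which the complex is built. It was at 114, 105 and 115 CPM in Cebpa_fl/fl and 57.1, 55.7 and 61.7 in Cebpa_ASKO. Both groups were tight and well apart, and the mean fell from 111 ± 5.30 to 58.2 ± 3.14 CPM (log2 fold change -0.94, SE 0.08, edgeR adjusted p = 0.00212).

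*Bckdha* (chr7:25629946-25658981, minus strand), which encodes the E1 alpha subunit that carries the regulatory phosphate, was at 285, 215 and 270.3 CPM against 289, 251 and 224. The groups overlapped fully, with means of 256 ± 37.0 and 255 ± 33.0 CPM and a log2 fold change of -0.01 (95% interval -0.37 to 0.35, edgeR adjusted p = 0.979). A single transcript, Bckdha-201, held at least 99.7% of its level in each library. Its sign was not settled, since scaling by total counts gave 0.035 and TPM in limma 0.051. *Bckdhb* (chr9:83925145-84124240, plus strand), the E1 beta subunit, was at 73.9, 74.5 and 78.0 CPM against 66.8, 54.8 and 53.4. Every Cebpa_ASKO library was below every control, but the log2 fold change of -0.37 (SE 0.11) did not pass the test in edgeR (adjusted p = 0.111). *Dld*, the E3 subunit that BCKDH shares with the pyruvate and 2-oxoglutarate dehydrogenases, was at 340.3, 198 and 315 CPM against 334, 277 and 244 (log2 fold change 0.00, 95% interval -0.54 to 0.54), and several other settings gave it the opposite sign.

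Per length, *Bckdha* stood higher over *Dbt* and *Bckdhb*, though not over *Dld*, in every Cebpa_ASKO library than in any control. *Bckdha* over *Dbt* in gene TPM was 4.46, 3.70 and 4.19 in Cebpa_fl/fl and 8.79, 8.20 and 6.41 in Cebpa_ASKO, and *Bckdha* over *Bckdhb* was 2.47, 1.72 and 2.21 against 2.90, 2.93 and 2.67. Neither ratio overlapped between the genotypes (exact permutation p = 0.1 each, the smallest possible). *Bckdha* over *Dld* was 1.13, 1.46 and 1.16 against 1.17, 1.22 and 1.23 and overlapped. Against the transaminase the shift was wider, with *Bckdha* over *Bcat2* at 1.17, 0.736 and 0.970 against 4.26, 4.28 and 3.09. These ratios are built from the levels of the same genes given above and are not separate support for them.

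The genes of the kinase and the phosphatase of the complex had log2 fold changes of opposite sign, and neither passed the test. *Bckdk* (chr7:127904082-127910221, plus strand), the inhibitory kinase, was at 93.6, 71.6 and 93.2 CPM in Cebpa_fl/fl and 107, 97.8 and 82.7 in Cebpa_ASKO (log2 fold change 0.15, 95% interval -0.19 to 0.50, edgeR adjusted p = 0.646). *Ppm1k* (chr6:57506502-57535468, minus strand), the activating phosphatase and the lowest of the 10 genes, was at 31.4, 24.8 and 31.1 against 15.7, 14.4 and 21.8 CPM. All Cebpa_ASKO libraries were below all controls for *Ppm1k*, with a log2 fold change of -0.75 (SE 0.18, edgeR adjusted p = 0.0703). Cebpa_ASKO 3 was the highest of its group, and without it the log2 fold change was -0.96 (edgeR adjusted p = 0.0225). Without any other single library *Ppm1k* did not pass the test, at edgeR adjusted p between 0.0566 and 0.243, with log2 fold changes of -0.65 to -0.86.

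The ratio of *Bckdk* to *Ppm1k* in gene TPM was 7.08, 7.50 and 7.53 in Cebpa_fl/fl and 20.1, 17.6 and 8.31 in Cebpa_ASKO. The controls lay close together and the Cebpa_ASKO libraries above them were spread out, with Cebpa_ASKO 3 only just above. The mean log2 ratio was 0.96 higher in Cebpa_ASKO (exact two-sided permutation p = 0.1, the smallest that 20 arrangements allow). It was 0.71 higher without Cebpa_ASKO 1 and 1.35 higher without Cebpa_ASKO 3. The skeletal muscle markers summed to 3521, 6678 and 2326 CPM in Cebpa_ASKO 1 to 3. They were lowest in the library with the lowest ratio but highest in Cebpa_ASKO 2. With their sum as a covariate the log2 fold change of *Ppm1k* was 0.092, in a fit that cannot separate muscle from genotype.

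On the leucine route *Ivd* and *Mccc1* both fell. *Ivd* (chr2:118861954-118882909, plus strand), isovaleryl-CoA dehydrogenase, which takes the leucine skeleton through its first step after BCKDH, was at 306, 309.6 and 369 CPM in Cebpa_fl/fl and 126, 133 and 119.7 in Cebpa_ASKO. The mean fell from 328 ± 35.4 to 126 ± 6.52 CPM, to 38.4% of the control level (log2 fold change -1.38, SE 0.11, edgeR adjusted p = 0.00156). In TPM the gene was at 49.1% of the control mean, a smaller difference, and its transcripts did not move alike. The full-length coding transcript Ivd-201 was at 92.9, 105 and 119 against 37.3, 43.2 and 40.9 TPM. The noncoding transcripts of *Ivd*, many of them short, summed to 39.6, 41.5 and 60.9 against 26.4, 42.6 and 35.2 TPM and overlapped between the genotypes. The coding share of the *Ivd* TPM was 70.1%, 71.7% and 66.1% in Cebpa_fl/fl and 58.5%, 50.4% and 53.8% in Cebpa_ASKO, without overlap (exact permutation p = 0.1), and this split was looked at after the values were seen.

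**Figure D2:**
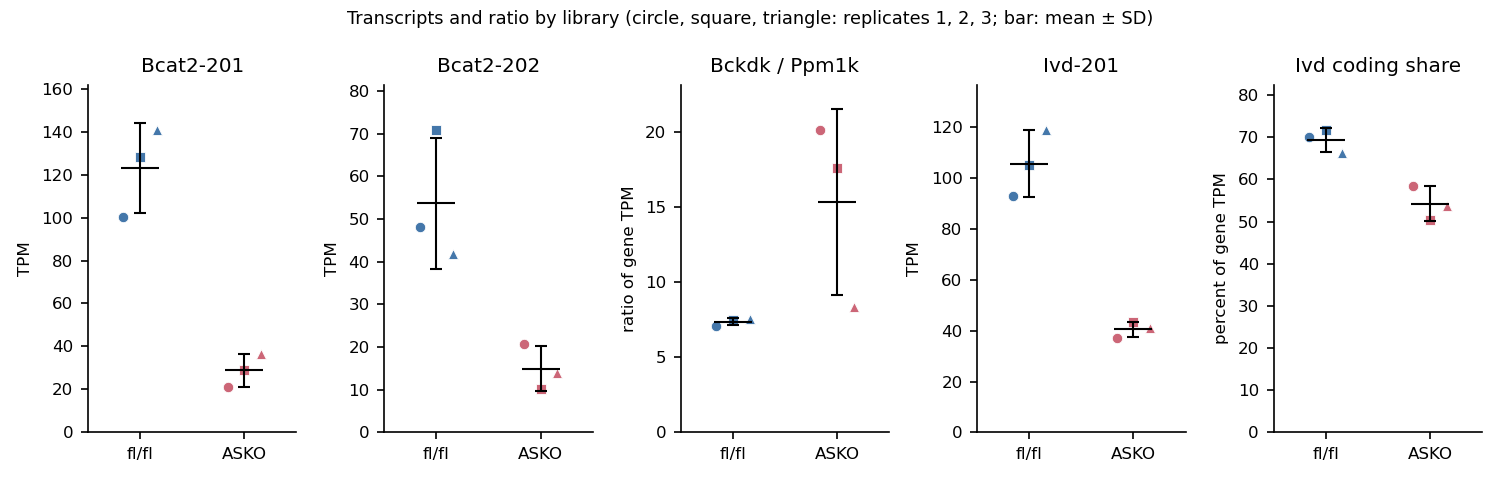
The panels plot, by library and from 0, the TPM of the coding transcripts Bcat2-201 and Bcat2-202, the ratio of *Bckdk* to *Ppm1k* in gene TPM, the TPM of Ivd-201, and the percent of *Ivd* TPM in coding transcripts, with bars for the mean ± SD. Both *Bcat2* transcripts and Ivd-201 are lower in all Cebpa_ASKO libraries, and Cebpa_ASKO 3 is just above the controls for the ratio.

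*Mccc1* (chr3:35959312-36000678, minus strand) and *Mccc2* encode the alpha and beta subunits of methylcrotonyl-CoA carboxylase, the biotin enzyme that follows. *Mccc1* was at 190.3, 163 and 213 CPM against 122, 124 and 112, and its mean fell from 189 ± 25.0 to 119 ± 6.31 (log2 fold change -0.66, SE 0.12, edgeR adjusted p = 0.0299). This call was the weakest of the 5. It was kept without Cebpa_fl/fl 2 and lost without any other single library, at adjusted p between 0.0729 and 0.124, with log2 fold changes of -0.56 to -0.70. Its partner *Mccc2*, at 119, 113 and 129.8 against 77.8, 68.0 and 65.5 CPM, fell by a similar amount (log2 fold change -0.77, SE 0.10, edgeR adjusted p = 0.00875) and kept its call without each library. The next leucine gene, *Auh*, which encodes a hydratase, had a log2 fold change of -0.32 and did not pass the test.

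On the valine route *Aldh6a1* fell, while *Hibadh* did not pass the test. *Aldh6a1* (chr12:84430717-84451004, minus strand), methylmalonate semialdehyde dehydrogenase, which makes propionyl-CoA at the end of the valine route, had the highest level per length of the 10 in Cebpa_fl/fl. It was at 577, 613 and 693 CPM in Cebpa_fl/fl and 295, 286 and 293 in Cebpa_ASKO. The mean fell from 628 ± 59.8 to 291 ± 4.43 CPM, to 46.4% (log2 fold change -1.11, SE 0.12, edgeR adjusted p = 0.00374), and Aldh6a1-201 held 97.3% or more of the gene in each library. *Hibadh* (chr6:52546228-52640389, minus strand), the dehydrogenase just before it, was at 285, 259 and 292 against 239, 212 and 205 CPM. Its groups were apart, by a smaller margin (log2 fold change -0.35, SE 0.11, edgeR adjusted p = 0.135).

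Of the earlier valine genes, *Hibch* passed the test and *Acad8* did not. *Hibch*, the hydrolase that releases 3-hydroxyisobutyrate, was at 182, 163 and 178 against 124.5, 106 and 99.8 CPM and fell (log2 fold change -0.66, edgeR adjusted p = 0.0227). The call was lost without Cebpa_fl/fl 1, Cebpa_fl/fl 3, Cebpa_ASKO 2 or Cebpa_ASKO 3, with adjusted p between 0.0517 and 0.0976. *Acad8*, isobutyryl-CoA dehydrogenase, which acts on valine as *Ivd* does on leucine, was at 45.2, 36.8 and 47.9 against 48.4, 44.1 and 40.1 CPM (log2 fold change 0.03, 95% interval -0.27 to 0.33, edgeR adjusted p = 0.935), with the sign turning without Cebpa_fl/fl 2 or Cebpa_ASKO 1.

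On the isoleucine route *Acadsb* had the largest fall of the 25 other pathway genes. This short/branched-chain acyl-CoA dehydrogenase was at 239.9, 254 and 278 CPM against 113, 109 and 107 (log2 fold change -1.23, SE 0.10, edgeR adjusted p = 0.00123). *Hsd17b10*, the dehydrogenase of the third isoleucine step, was at 99.6, 108 and 109.8 against 65.3, 59.5 and 60.0 CPM (log2 fold change -0.78, SE 0.08, edgeR adjusted p = 0.00387). Both calls held without each library. *Echs1*, a hydratase shared with fatty acid oxidation, and *Acat1*, the closing thiolase, had log2 fold changes of -0.50 and -0.14 and did not pass the test. Of the acyl-CoA dehydrogenases that take the 3 routes through the same step, those for leucine (*Ivd*) and isoleucine (*Acadsb*) thus fell, and that for valine (*Acad8*) had an interval around 0.

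In all, 6 of 25 other genes of the pathway fell and 0 rose in edgeR (12 were lower and 0 higher at an unadjusted p under 0.05), with 11 of 25 apart in the lower direction, beside 3.84% called lower and 13.2% apart lower over all genes tested. The median log2 fold change of the 25 was -0.14. Beside the 4 named above they were *Mcee*, an epimerase in the disposal of propionyl-CoA, at 55.7, 44.6 and 45.6 against 34.7, 32.2 and 26.8 CPM (log2 fold change -0.64, edgeR adjusted p = 0.0460), and *Btd*, which recycles biotin, at 50.1, 54.6 and 51.0 against 41.1, 35.4 and 35.7 CPM (log2 fold change -0.47, adjusted p = 0.0349). The call of *Btd* was lost without any single library (adjusted p 0.0521 to 0.124), and that of *Mcee* without any but Cebpa_fl/fl 2 (0.0881 to 0.138). The carboxylase genes *Pcca* and *Pccb* (-0.50 and -0.08) and the mutase gene *Mmut* (-0.52, listed as *Mut*) did not pass the test. Neither did *Slc25a44*, the mitochondrial carrier of branched-chain amino acids, at 65.4, 63.4 and 75.6 against 55.2, 55.7 and 49.9 CPM (log2 fold change -0.35, edgeR adjusted p = 0.109), nor the plasma membrane pair *Slc7a5* and *Slc3a2* (0.36 and -0.02). The electron carriers *Etfa*, *Etfb* and *Etfdh*, which accept electrons from the acyl-CoA dehydrogenases of this and other pathways, lay between -0.06 and 0.15. The plot of fold changes sets the 10 genes above the others.

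**Figure D3:**
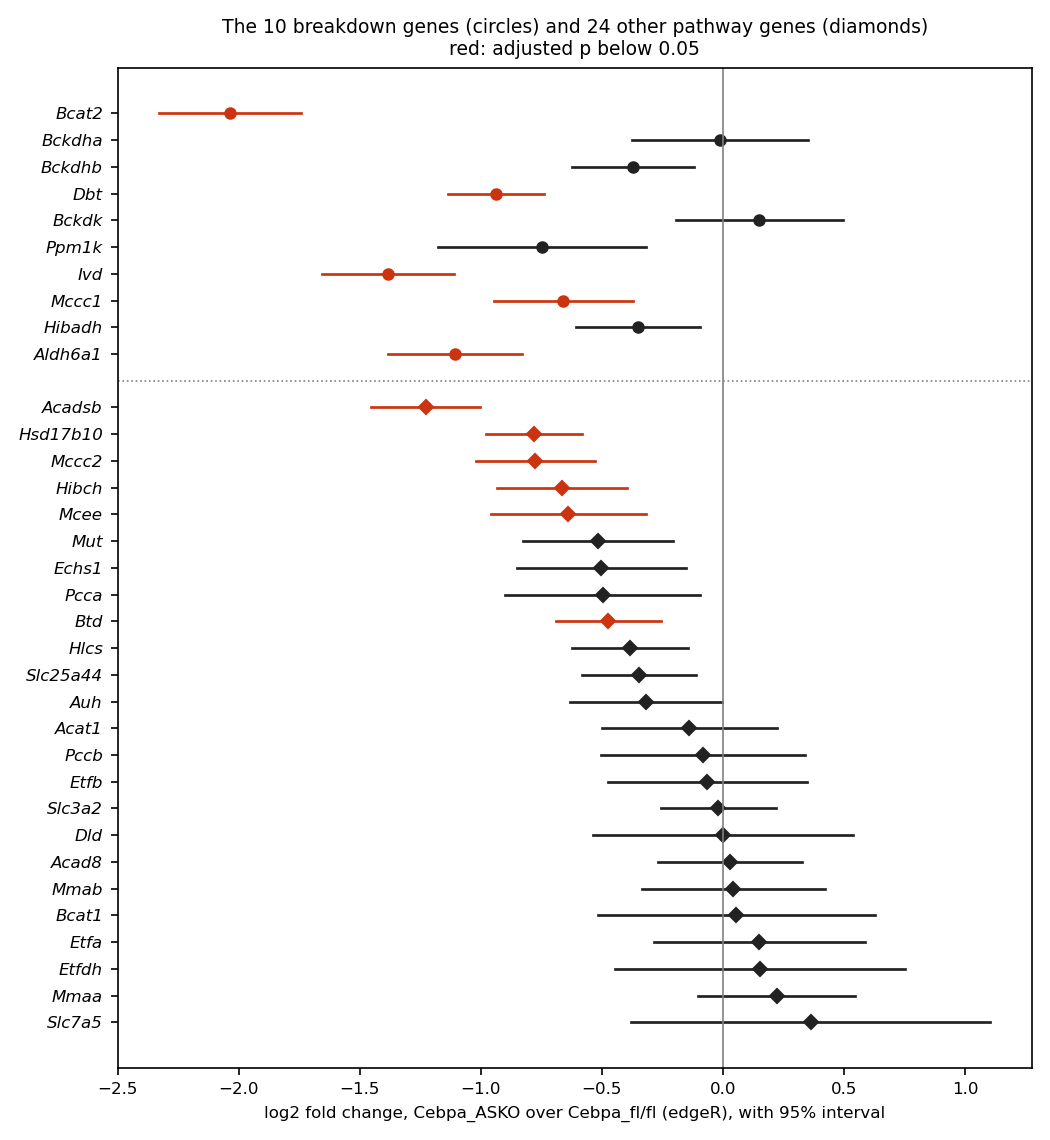
Points give the log2 fold change of Cebpa_ASKO over Cebpa_fl/fl and lines its 95% interval, for the 10 genes (circles, pathway order) and 24 of the 25 other pathway genes (diamonds, sorted), with red for an adjusted p below 0.05. The 5 and 6 red intervals all lie below 0, and *Bckdha*, *Bckdk*, *Dld* and *Acad8* have intervals that span 0.

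The levels per length also changed order. In Cebpa_fl/fl the mean TPM ran from *Aldh6a1* (234 ± 30.3), *Hibadh* (200.3 ± 10.1), *Bcat2* (187 ± 28.2), *Bckdha* (176 ± 17.2) and *Ivd* (153 ± 24.3) down to *Mccc1* (105 ± 8.34), *Bckdhb* (83.3 ± 8.12), *Bckdk* (57.2 ± 7.82), *Dbt* (42.8 ± 1.84) and *Ppm1k* (7.77 ± 1.08). The first 5 of these differed from their neighbours among them by no more than the sum of their SDs. In Cebpa_ASKO *Bckdha* (182 ± 10.2) and *Hibadh* (164 ± 1.29) came first, *Aldh6a1* (113 ± 8.77) the third, and *Bcat2* (47.7 ± 6.44) came below *Bckdk* (66.6 ± 6.80). The summed TPM of the 10 genes was 1149, 1239.8 and 1351 in Cebpa_fl/fl and 786, 839 and 813 in Cebpa_ASKO, 65.2% of the control mean (exact permutation p = 0.1).

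A pair of lists for other mitochondrial functions was counted in the same way. Of 14 citric acid cycle genes, which encode the cycle that receives the acetyl-CoA and succinyl-CoA made here, 0 passed the test in edgeR, with 1 lower and 2 higher at an unadjusted p under 0.05 and 1 each called higher by DESeq2 and by limma. Fold changes of 13 were above 0, and the list's median was 0.32 on the log2 scale. Their summed TPM was 3788, 2353 and 3468 in Cebpa_fl/fl and 4833, 4449 and 4028 in Cebpa_ASKO. Relative to that sum, the 10 breakdown genes were at 0.303, 0.527 and 0.390 against 0.163, 0.189 and 0.202, without overlap (exact permutation p = 0.1), a quotient chosen after the values were seen. The citric acid cycle sum was itself higher in every Cebpa_ASKO library than in any control, at 138.5% of the control mean. The quotient thus holds both changes. Of 14 genes for mitochondrial import and maintenance 0 passed the test in edgeR, 0 had an unadjusted p under 0.05 and 0 were called by DESeq2 or limma, with a median of -0.02. Cebpa_fl/fl 2, the control lowest in the citric acid cycle, was also the lowest control for *Bckdha*, *Bckdk*, *Ppm1k*, *Dbt*, *Mccc1* and *Hibadh*, and without it the calls for the 5 genes that fell were kept.

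Among 12 genes of the sister dehydrogenases and their regulators, only *Pdp1* passed the test. This pyruvate dehydrogenase phosphatase subunit was at 12.7, 15.9 and 12.3 CPM against 27.5, 25.5 and 21.1 and rose (log2 fold change 0.85, SE 0.15, edgeR adjusted p = 0.0252), a call lost without Cebpa_fl/fl 1, Cebpa_fl/fl 3, Cebpa_ASKO 1 or Cebpa_ASKO 2 (0.0804 to 0.112). The pyruvate dehydrogenase kinase gene *Pdk4* was at 379, 93.8 and 159 CPM against 529, 270.4 and 509 and did not pass the test (log2 fold change 1.05, 95% interval -0.20 to 2.30, edgeR adjusted p = 0.334).

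Among 8 regulators of oxidative metabolism and of this pathway, *Klf15* and *Pparg* fell and 0 rose in edgeR, with 1, *Gabpa*, higher at an unadjusted p under 0.05, named after its value was seen. KLF15 is a Krüppel-like factor known for its control of branched-chain amino acid breakdown in muscle and liver, and it is also induced in adipogenesis. *Klf15* was at 43.7, 59.7 and 66.1 CPM in Cebpa_fl/fl and 11.9, 16.9 and 17.3 in Cebpa_ASKO, or 27.2% of the control mean (log2 fold change -1.88, SE 0.21, edgeR adjusted p = 0.00435), beside -2.03 for *Bcat2*. *Pparg*, the adipogenic nuclear receptor and one of the adipocyte markers, fell to 58.3% (log2 fold change -0.78, adjusted p = 0.0125). The mitochondrial regulators *Ppargc1a*, *Esrra* and *Nrf1* had log2 fold changes of -0.25, 0.03 and -0.04 and did not pass the test. The heat map of levels sets these genes beside the marker sums.

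**Figure D4:**
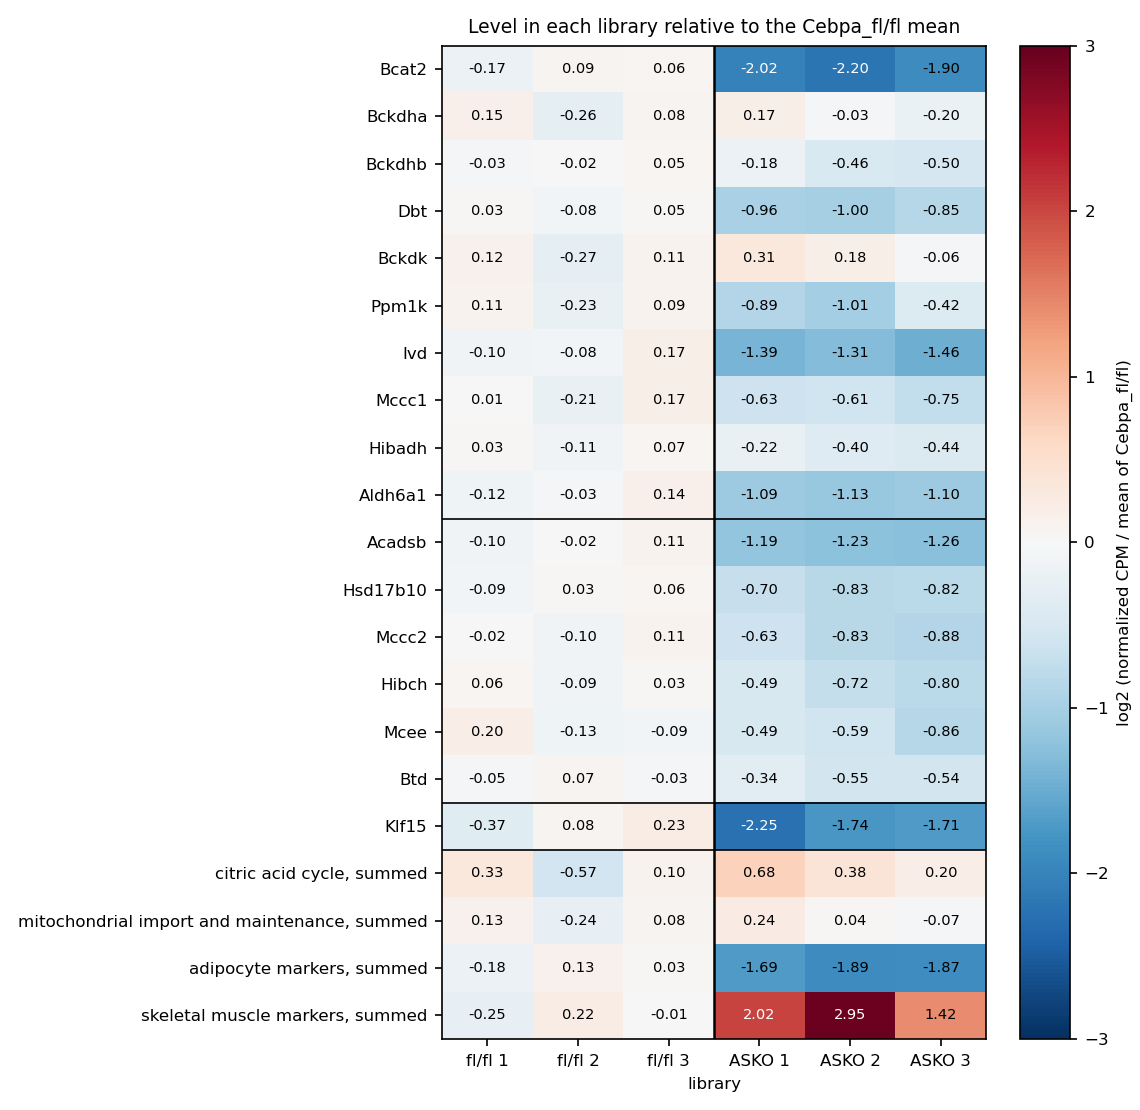
Colour and number give the log2 of normalized CPM over the mean of Cebpa_fl/fl, for each library (columns), the 10 genes, the 6 other pathway genes that fell, *Klf15*, and 4 summed lists. *Bcat2* runs from -1.90 to -2.20 in Cebpa_ASKO, beside -1.69 to -1.89 for the adipocyte marker sum and 1.42 to 2.95 for the skeletal muscle sum.

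Beside the adipocyte markers the breakdown genes were spread on both sides. The 14 markers had a median log2 fold change of -0.99, which *Bcat2*, *Ivd* and *Aldh6a1* exceeded and *Dbt* came close to. Their summed level was at -1.69 to -1.89 on the log2 scale in Cebpa_ASKO, relative to the control mean. Of these genes only *Bcat2* (-1.90 to -2.20) was below it in each library, with *Ivd* at -1.31 to -1.46 and *Aldh6a1* at -1.09 to -1.13. The log2 fold changes of all 14 were below 0, with 11 apart in the lower direction and 8 called. *Slc2a4*, the insulin-responsive glucose carrier and a marker of the same list, stood at its upper end. It had a log2 fold change of 0.00, like *Bckdha*. Across the 6 libraries, genes whose log2 CPM was most like the mean profile of the 10 were *1700066M21Rik* (Pearson r = 0.998), *Fabp5* (0.997), *Ldah* (0.997) and *Pex16* (0.996). These values are dominated by the difference between genotypes and stand as a description. Of these, *Fabp5*, *Ldah* and *Pex16* fell, and *1700066M21Rik* did not pass the test (edgeR adjusted p = 0.166).

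In GENCODE M21, 8 of the 10 genes are overlapped by genes of the opposite strand. Of those with a value in the gene table, *B3gnt8* over *Bckdha* and *Bbof1* over *Aldh6a1* were the highest, at no more than 3.58 and 4.21 TPM in any library. Those with no value there, such as *0610005C13Rik* over *Bcat2* and *Gm45193* over *Ppm1k*, were not analysed here. *Bckdk* and *Ppm1k* each share a stretch of at least 150 bases and 90% identity with many other genes. The search, which capped the number of matches kept, found 390 and 422 of them, over at most 181 and 236 bases. Reads from these stretches are thus less certain in both genes and in their ratio. Whether the counting used strand is not given in the sources used here. For *Bcat2*, *Dbt*, *Ivd* and *Aldh6a1* the call held in 17 of 18 fits, the exception being a fit with the skeletal muscle sum as a covariate, in which edgeR called 0 of 16069 genes and 981 had an unadjusted p under 0.05. In that fit their log2 fold changes were -1.75, -0.71, -1.58 and -1.09. DESeq2 called 8 of the 10 genes lower, adding *Bckdhb*, *Ppm1k* and *Hibadh*, beside 6.45% of the genes it tested.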

How the data were processed

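RNA-seq was done on poly-A RNA from the iWAT of each mouse, both depots together, with lymph nodes removed. For each library the authors deposited kallisto estimated counts (version 0.44.0, per the submitters' processing notes) and TPM for every transcript, beside its effective length, and TPM summed per gene symbol. Of 118489 transcripts, 116816 matched GENCODE M21 (GRCm38). Estimated counts were summed per symbol and rounded. Genotypes came from the labels, which give 1 batch for all libraries. Counts of replicates differed far beyond counting error, with chi-square over its degrees of freedom at 27.6 to 239, and they were kept as separate samples. edgeR 4.0.16 (TMM scaling, factors 0.956 to 1.06, filterByExpr, quasi-likelihood test, Benjamini-Hochberg over 16069 genes) was the main test in R 4.3.3, with a call at an adjusted p below 0.05. The study's own test was DESeq2. DESeq2 1.42.0, limma 3.58.1 on log2(TPM + 1) and log2(TPM + 0.1), other scalings, filters, covariates and left-out libraries were tried. Ratios and sums used exact permutation tests (scipy 1.17.1). The deposited counts are the source of all tests except those named as TPM.

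The members, gene lists and rules were chosen with earlier results of these data known. Named were the 10 members, *Bcat1*, *Dld*, *Mccc2*, *Acadsb*, *Acad8*, *Hibch* and *Slc25a44*, the called genes of the pathway, mitochondrial and regulator lists, *Klf15*, *Pdk4* and the 5 most similar genes (mean log2 CPM 1 or above). A gene of the pathway list and 1 of the 5 similar genes are not reported here. *Slc2a4*, *Wap*, *Ppargc1a*, *Esrra*, *Nrf1* and the uncalled pathway genes other than those fixed were chosen after their values were seen. Of the other marker lists, edgeR called 0 of 8 brown and beige adipocyte markers, with 1 lower and 2 higher at an unadjusted p under 0.05. DESeq2 called 1 of them lower and limma 0, with 4 higher at an unadjusted p under 0.05 in limma. Their sums were 155 to 1338 CPM in Cebpa_fl/fl and 775 to 1480 in Cebpa_ASKO. Among lymphocyte markers edgeR called 0 of 7, with 5 lower at an unadjusted p under 0.05. DESeq2 called 2 of these lower and limma 0. Of 8 macrophage and of 8 fibroblast and progenitor markers 0 were called by edgeR, DESeq2 or limma, and 0 had an unadjusted p under 0.05.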

Additional observations from a re-analysis of the deposited data

How the results depend on the processing

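The 10 genes gave 5 calls in most settings, 4 to 5 with a library left out, 3 with a minimum size of 1 on the log2 scale, 8 in DESeq2 and 0 with the skeletal muscle covariate (4 at an unadjusted p under 0.05 in edgeR). The muscle sum does not overlap between the genotypes. The 25 other pathway genes gave 6 calls, 1 with that minimum size, 10 in DESeq2, 2 with the replicate block, 0 with the muscle covariate (3 at an unadjusted p under 0.05) and 3 to 8 with a library left out. Over all genes 840 calls became 495 with it, 1802 in DESeq2, 359 in limma without a filter, 370 with the replicate block, 0 with the covariate (981 at an unadjusted p under 0.05) and 311 to 922 with a library left out. Scaling by total counts gave 535 lower and 272 higher, against 617 and 223. Whether the numbers of the replicates pair the samples is not given in the labels. Correlations of same-numbered deviations were 0.16, -0.03 and -0.29, beside -0.24 to 0.24 for different numbers. With 3 libraries per group they cannot settle it. The replicate block left 4 of the 10 genes called, losing *Mccc1* (adjusted p = 0.120 in edgeR). The summed level of the 10 genes, -0.61 on the log2 scale in TPM, was -0.77 in summed CPM and -1.11 per summed citric acid cycle TPM, the last chosen after seeing the data. Signs turned for *Dld* (-0.015 in DESeq2, -0.013 with its size factors, -0.014 with 10 counts in every library, -0.0049 with all genes of at least 1 count, -0.22 to 0.15 with a library left out), *Bckdha* (0.035 by total counts, 0.051 in limma on log2(TPM + 1) with and without a filter, 0.052 with log2(TPM + 0.1), -0.14 to 0.069 with a library left out) and *Ppm1k* (0.092 with the muscle covariate). With a library left out, *Acad8* ran from -0.086 to 0.11 and *Bcat1* from -0.17 to 0.23. Of 408 gene values under other settings, 336 kept direction and side of the threshold, 49 lost it, 5 gained it and 18 turned. Except for the construction of the size threshold, the cause was not tested.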
